A study of Homo sapiens with 9 samples.

Results

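The G1 cyclin and CDK genes described here are 10 symbols out of the 26475 in the count table, and the rule that selects them is a list of names that uses no measured value, although it was drawn up with earlier results of these data known. They are the D-type cyclins CCND1, CCND2 and CCND3, the E-type cyclins CCNE1 and CCNE2, the kinases CDK4, CDK6 and CDK2, the phosphatase CDC25A and cyclin G2 (CCNG2). CDC25A is neither a cyclin nor a kinase, and cyclin G2 is an unconventional cyclin. Their transcripts were measured in A375, an established human melanoma line that carries a BRAF mutation. The 3 groups were A375 cells given DMSO, the solvent, as the control, cells given 5 µM TP-472 and cells given 10 µM TP-472. TP-472 is a small molecule that inhibits the bromodomain proteins BRD9 and BRD7. Each group was exposed for 24 h and has 3 libraries, described by the submitters as biological replicates. All libraries come from 1 line, and no inactive control compound was analysed here.

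During G1, growth signals raise the D-type cyclins, which bind CDK4 or CDK6 and begin to phosphorylate the retinoblastoma protein RB. Release of E2F factors from RB then allows E-type cyclins to accumulate and activate CDK2, and CDC25A removes inhibitory phosphates from CDK2. In melanoma, the RAF and ERK pathway feeds into this sequence mainly through cyclin D1, while cyclin G2 is known for its high levels in cells that have left the cycle.

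The libraries held 42483091 to 51298130 expected counts, and levels are given as CPM, the counts of a gene divided by the TMM-scaled size of its library. The lineage factor SOX10 stood at 416.5 CPM in DMSO and MITF at 31.9 CPM. The pigment enzyme TYR was at 0 in all 9 libraries. PMEL had a mean of 1.48 CPM in DMSO and at most 2.87 CPM in a library, at 10 µM. The dedifferentiation marker AXL stood at 523 CPM in DMSO, and the T cell gene CD3E was at 0 in all 9 libraries. Replicate 1 at 10 µM stood apart from the other libraries. The SD of its log2 deviations from the other libraries of its group was 0.956, against 0.377 to 0.727 elsewhere. Its deviations fell with exonic length across 15273 genes (Spearman rho = -0.407), whereas those of the DMSO and 5 µM libraries gave rho between -0.122 and 0.072. The other 10 µM libraries, whose deviations are taken in part from this one, gave 0.324 and 0.31. Values without this library are given as well where leaving it out changed a call or moved a printed value by over 1.5 times. This covers the members, their ratios, the related lists and the genes named from them. CCNG1 and the genes that share exons with members are given from all 9 libraries only. The part of this library in the results was not tested.

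Promoter windows of 250 bases before the RefSeq start (GRCh38.p14) were found for 6 of the 10 members, namely CCND3, CCNE1, CDK4, CDK6, CDC25A and CCNG2. The CCNG2 window is shown because that gene changed in every comparison, and the CDC25A window because it was the only one of the 6 genes with a match to an E2F-type word. The words searched on both strands were TTTCGCGC, TTTGGCGC, TTTCCCGC and TTTGGCGG for E2F, CACGTG for the E-box and TATAAA for the TATA box. Sequences run 5′ to 3′ on the strand of the gene, with capitals for a matched word. CDC25A covers chr3:48188418-48188667 on the minus strand, and CCNG2 covers chr4:77156957-77157150 on the plus strand, where the last 56 bases of its window were left out because GENCODE 29 annotates them as exon.
CDC25A: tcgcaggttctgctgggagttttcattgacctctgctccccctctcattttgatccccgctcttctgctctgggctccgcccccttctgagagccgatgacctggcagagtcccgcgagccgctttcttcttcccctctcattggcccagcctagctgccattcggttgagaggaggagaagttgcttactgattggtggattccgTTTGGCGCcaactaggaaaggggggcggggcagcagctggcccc
CCNG2: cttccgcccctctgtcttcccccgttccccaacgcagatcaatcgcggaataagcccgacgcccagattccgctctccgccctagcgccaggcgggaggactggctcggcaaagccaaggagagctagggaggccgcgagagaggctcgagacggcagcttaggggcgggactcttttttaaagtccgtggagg
In CDC25A, TTTGGCGC began 44 bases before the start. An E2F-type word was present in 2.83% of 35116 RefSeq promoter windows of this length. CCNG2 held 1 E-box, 30 bases before the start and outside the stretch shown, and CDK4 held 3 E-boxes, all of them at least partly in the 211 of its 250 bases that GENCODE 29 annotates as exon. The E-box word was present in 6.34% of the 35116 windows. None of the windows of the 6 members held TATAAA, which was present in 10.7% of all windows. These matches are a description of letters and not of binding.

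Within the DMSO libraries the members covered a wide range of abundance. Dividing CPM by the annotated exonic length makes genes comparable with each other, and on this scale CCND1 was the most abundant member, at 129 ± 0.656 CPM per kb (SD, n = 3). CDK4 followed at 75.4 ± 1.42 CPM per kb, ahead of CDK2 at 25.1 ± 0.544 and CDK6 at 17.2 ± 0.660. CDC25A, CCND3, CCNE1 and CCNG2 lay between 9.40 and 5.80 CPM per kb in that order. CCNE2 came next at 3.86 CPM per kb and CCND2 last at 0.0212. No neighbours in this order overlapped among the DMSO libraries. With TP-472, the order of the first 4 genes by group mean was unchanged in these data. At 5 µM the ranges of CDC25A and CCND3 overlapped, as did those of CCNE2 and CCNG2. At 10 µM overlaps were seen between CDK6 and both CCND3 and CDC25A, between CDC25A and CCNE1, and between CCNE2 and CCNG2. The annotated length includes every isoform, so the level of a gene with long minor isoforms is understated.

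**Figure D1:**
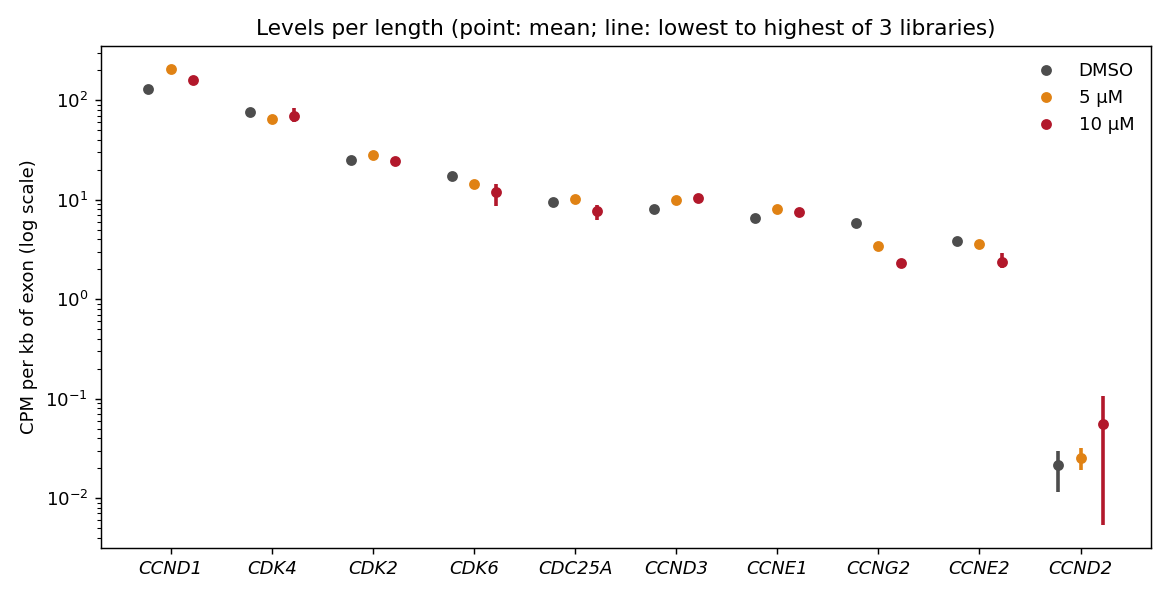
Level of each of the 10 members in CPM per kb of annotated exon, on a log axis, in DMSO (grey), 5 µM (orange) and 10 µM TP-472 (red); points are means and lines run from the lowest to the highest of 3 libraries. CCND1 was highest in all 3 groups, at 129, 203.8 and 160.2 CPM per kb, and CCND2 was lowest.

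In these bulk libraries, fewer cells with a transcript and less of it per cell cannot be told apart. The 3 comparisons asked how each dose differed from DMSO and how the doses differed from each other. At 5 µM, CCND1 and CCND3 rose and CCNG2 fell, and the other 7 members did not pass the test. At 10 µM, CCND1 and CCND3 rose, whereas CCNE2, CDK6 and CCNG2 fell. Between the doses, CCND1, CCNE2 and CCNG2 were lower at 10 µM than at 5 µM and no member was higher. All 10 members passed the filter on low counts and entered edgeR's quasi-likelihood test with 16417 genes, and a gene was called at a Benjamini-Hochberg adjusted p under 0.05. The 2 rises and 1 fall at 5 µM stand beside 4.40% of all tested genes that were higher and 5.81% that were lower. At 10 µM, where 2 members rose and 3 fell, 16.4% of all genes were higher and 18% were lower, so the members' share was not far from the background. Between doses, 0 members rose and 3 fell, against 2.87% and 5.53% of all genes. The median log2 fold change of the 10 members was 0.14 at 5 µM, -0.09 at 10 µM and -0.24 between doses. Over all tested genes the corresponding medians were 0.0054, 0.0107 and 0.0012. Both comparisons with DMSO use the same 3 DMSO libraries and are therefore not independent.

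Without replicate 1 at 10 µM, the fit called 4 members higher and 3 lower at 5 µM, where 34.2% of 16745 tested genes were called in either direction. At 10 µM it called 2 higher and 4 lower, beside 48.8% of genes, and between doses 0 higher and 5 lower, beside 24.2% of genes. The 3 groups share 1 estimate of spread, so leaving out this library changed the errors at 5 µM as well, while the fold changes at 5 µM hardly moved. The added calls are given with each gene below.

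**Figure D2:**
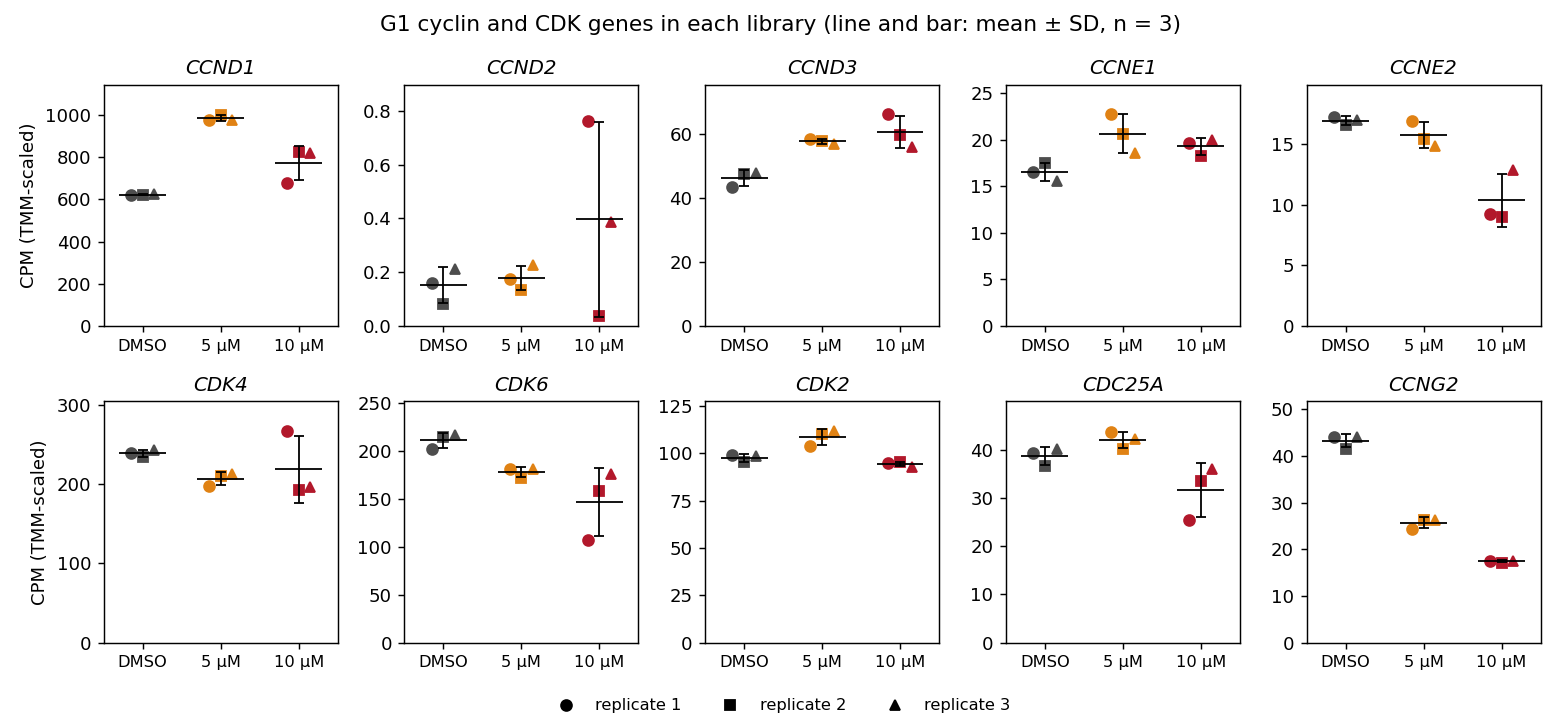
CPM of each member in the 9 libraries, with a symbol for each replicate, the mean as a line and the SD as a bar (n = 3), and axes that start at 0. CCNG2 stepped down from DMSO to 5 µM to 10 µM, CCND1 was highest at 5 µM, and 10 µM replicate 1 lay apart from its group in CDK4 and CDK6.

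CCND1 (chr11:69641087-69654474, plus strand; gene positions are GENCODE 29 on GRCh38) encodes cyclin D1, which activates CDK4 and CDK6 and is a classic target of ERK signaling. It was measured at 620.8, 621.8 and 626.7 CPM in DMSO, at 977, 1001 and 974.7 CPM at 5 µM, and at 679.6, 822.6 and 818.8 CPM at 10 µM. Every TP-472 library was above every DMSO library, and the 5 µM libraries were above all 10 µM libraries. The log2 fold change was 0.66 ± 0.08 (SE) at 5 µM, a 1.58-fold rise (adjusted p = 0.000839). It was 0.31 ± 0.08 at 10 µM (adjusted p = 0.0125). The cyclin D1 transcript was thus higher at both doses, by more at the lower dose, and the direct comparison of doses gave -0.35 ± 0.08 (adjusted p = 0.0265). The rise at 10 µM lost its call without DMSO replicate 2 (adjusted p = 0.0541) or DMSO replicate 3 (adjusted p = 0.05). The difference between doses lost its call without any single DMSO or 5 µM library, with adjusted p between 0.0575 and 0.0991, and in a fit of the doses alone (adjusted p = 0.155). Without 10 µM replicate 1, the rise at 10 µM was 0.39 ± 0.03 (adjusted p = 1.04e-08) and the difference between doses was -0.26 ± 0.03 (adjusted p = 4.98e-06).

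CCND3 (chr6:41934933-42050357, minus strand) encodes cyclin D3, which also pairs with CDK4 and CDK6. It stood at 43.3, 47.5 and 47.8 CPM in DMSO, at 58.3, 57.6 and 56.9 CPM at 5 µM, and at 66.0, 59.7 and 55.9 CPM at 10 µM. The DMSO libraries lay below all TP-472 libraries, and the ranges of the doses overlapped. The log2 fold change was 0.32 ± 0.08 at 5 µM (adjusted p = 0.0376) and 0.39 ± 0.08 at 10 µM (adjusted p = 0.00509). Between doses it was 0.07, with a 95% interval from -0.11 to 0.26, and 0.0032 without 10 µM replicate 1. The call at 5 µM was lost when any 1 of the DMSO or 5 µM libraries was left out (adjusted p between 0.109 and 0.182) and without a filter on low counts (adjusted p = 0.0542). Both calls were made without 10 µM replicate 1, at 5 µM with an adjusted p of 0.000262 and at 10 µM with 0.32 ± 0.06 (adjusted p = 0.00032).

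CCND2 (chr12:4273772-4305350, plus strand), the gene of cyclin D2, was close to undetected. Its expected counts were 8.5, 4 and 9 in DMSO, 8, 7 and 11 at 5 µM, and 37, 2 and 19 at 10 µM. The 10 µM libraries held both the highest and the lowest count, and all groups overlapped. Its log2 fold change of 0.24 at 5 µM had a 95% interval from -1.83 to 2.31, and that of 1.37 at 10 µM ran from -0.66 to 3.40, so these counts do not tell a rise from a fall. The value at 10 µM was 0.48 without 10 µM replicate 1 (adjusted p = 0.737). Part of the CCND2 exons (13.8%) is shared on the same strand with another annotated gene.

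As a share of the summed D-type level per kb, CCND1 took 94.0% to 94.5% in DMSO and 95.3% to 95.4% at 5 µM. At 10 µM its share was 92.4% in replicate 1 and 94.3% and 94.6% in the others. CCND3 supplied nearly all of the remainder. Cyclin D1 was therefore the main D-type transcript in every library, and both expressed D-type cyclins rose with TP-472.

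CCNE1 (chr19:29811898-29824308, plus strand) and CCNE2 (chr8:94879770-94896678, minus strand) encode the E-type cyclins, the partners of CDK2 at the entry into S phase. CCNE1 stood at 16.6, 17.6 and 15.6 CPM in DMSO, at 22.8, 20.6 and 18.6 CPM at 5 µM, and at 19.7, 18.3 and 19.99 CPM at 10 µM. All TP-472 libraries were above the DMSO libraries. Its log2 fold change was 0.32 ± 0.10 at 5 µM, with an adjusted p of 0.0749 that missed the threshold, and 0.22 at 10 µM, with a 95% interval from -0.0015 to 0.44 and an adjusted p of 0.116. Without 10 µM replicate 1 the value at 5 µM was 0.32 ± 0.09 and passed (adjusted p = 0.0103). It also passed with DESeq2 (adjusted p = 0.0341) and in a fit of only the groups compared (adjusted p = 0.0072).

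CCNE2 fell at 10 µM. It stood at 17.3, 16.6 and 17.0 CPM in DMSO, at 16.9, 15.5 and 14.8 CPM at 5 µM, and at 9.28, 8.98 and 12.9 CPM at 10 µM. The 10 µM libraries were below all others, while DMSO and 5 µM overlapped. CCNE2 fell by 0.71 ± 0.14 on the log2 scale at 10 µM, a level 1.63-fold lower (adjusted p = 0.00348). It fell by 0.64 ± 0.13 without 10 µM replicate 1 (adjusted p = 0.000634). At 5 µM its log2 fold change was -0.11, with a 95% interval from -0.41 to 0.20. The difference between doses, -0.60 ± 0.14 (adjusted p = 0.0286), was lost without any single DMSO or 5 µM library or without 10 µM replicate 2 (adjusted p between 0.0593 and 0.107), and in a fit of the doses alone (adjusted p = 0.139). It was kept without 10 µM replicate 1 (adjusted p = 0.00651). Of the exon bases of CCNE2, 37.0% overlap INTS8 on the other strand, and its counts were not whole in any library. INTS8 itself gave log2 fold changes of -0.05 at 5 µM and -0.02 at 10 µM, neither past the test. Its mean was 64.7 CPM in DMSO and 64 CPM at 10 µM, above the CCNE2 means of 16.95 CPM and 10.4 CPM. The part of INTS8 reads in the CCNE2 counts was not tested.

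The ratio of the E-type cyclins within a library does not depend on scaling between libraries. The log2 ratio of CCNE1 to CCNE2 was -0.06, 0.08 and -0.13 in DMSO. It was 0.43, 0.41 and 0.33 at 5 µM and 1.08, 1.02 and 0.63 at 10 µM, so 6 of 6 TP-472 libraries were above the DMSO range. The mean difference between the 6 TP-472 and the 3 DMSO libraries was 0.69 on the log2 scale. An exact permutation test, two-sided, gave p = 0.0238, or 0.0714 after adjustment over the 3 ratios examined, where 0.0119 is the smallest p that the design allows. The unadjusted p was above 0.05 without any 1 DMSO library (exact p = 0.0714 each, where 0.0357 is the smallest possible) and without 10 µM replicate 3 (exact p = 0.0536). With 10 µM replicate 1 left out, the difference was 0.60 (exact p = 0.0179). The log2 ratio of CCND1 to CCND3 differed by 0.13 (exact permutation p = 0.452). Its mean was 3.75 in DMSO, 4.09 at 5 µM, where all 3 libraries were above the DMSO range, and 3.67 at 10 µM, so the dose means lay on opposite sides of the DMSO mean, with the 10 µM libraries spread from 3.36 to 3.87. Without 10 µM replicate 1 the difference was 0.23 (exact permutation p = 0.0536). The log2 ratio of CDK4 to CDK6 differed by 0.22 (exact permutation p = 0.512), and by 0.0398 without that library (exact permutation p = 0.5). In CDK4 to CDK6, 10 µM replicate 1 stood alone at 1.32, and the other 8 libraries lay between 0.12 and 0.29.

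**Figure D3:**
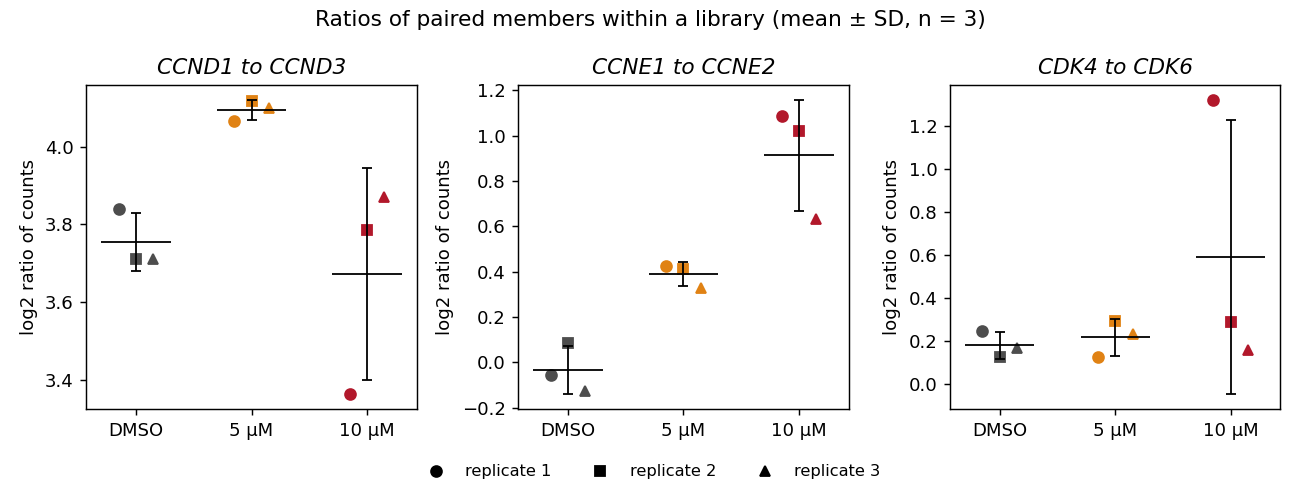
Log2 ratio of counts within each library for CCND1 to CCND3, CCNE1 to CCNE2 and CDK4 to CDK6, by group, with a symbol for each replicate, the mean as a line and the SD as a bar (n = 3). The CCNE1 to CCNE2 means were -0.03 in DMSO, 0.39 at 5 µM and 0.91 at 10 µM, and 10 µM replicate 1 stood alone at 1.32 in the CDK4 to CDK6 panel.

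CDK4 (chr12:57747727-57756013, minus strand) and CDK6 (chr7:92604921-92836594, minus strand) encode the kinases that D-type cyclins activate. CDK4 stood at 239.6, 234 and 243 CPM in DMSO, at 197, 211 and 212 CPM at 5 µM, and at 267.5, 193 and 196 CPM at 10 µM. The 5 µM libraries and 2 of the 10 µM libraries were below DMSO, but 10 µM replicate 1 was the highest of all. The log2 fold change was -0.21 at 5 µM, with a 95% interval from -0.47 to 0.05 (adjusted p = 0.32), and -0.13 at 10 µM, with an interval from -0.39 to 0.13 (adjusted p = 0.444). Without replicate 1 at 10 µM, CDK4 fell by 0.21 ± 0.04 at 5 µM (adjusted p = 0.000362) and fell by 0.30 ± 0.04 at 10 µM (adjusted p = 1.95e-05). The sign of the difference between doses then turned from 0.08 to -0.09. A fit of only the groups compared called the fall at 5 µM (adjusted p = 0.000245) but not the change at 10 µM (adjusted p = 0.553). Of the exons of CDK4, 43.2% overlap TSPAN31 on the other strand, and its counts were not whole in any library. TSPAN31 gave log2 fold changes of 0.08 and 0.04 at the 2 doses, neither past the test.

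CDK6 stood at 201.9, 215 and 217 CPM in DMSO, at 181, 172 and 181 CPM at 5 µM, and at 107, 158 and 176 CPM at 10 µM. All TP-472 libraries were below the DMSO libraries, and 10 µM replicate 1 was the lowest. CDK6 fell by 0.52 ± 0.15 on the log2 scale at 10 µM, a level 1.44-fold lower (adjusted p = 0.0223). At 5 µM the log2 fold change was -0.25, with a 95% interval from -0.58 to 0.09 (adjusted p = 0.363). The call at 10 µM was lost without DMSO replicate 2 (adjusted p = 0.0679), without DMSO replicate 3 (adjusted p = 0.0714) and in a fit of only the groups compared (adjusted p = 0.0658). Without 10 µM replicate 1 the change at 10 µM was smaller in size but better resolved, at -0.34 ± 0.05 (adjusted p = 3.53e-05). The value at 5 µM was then -0.25 ± 0.04 and passed as well (adjusted p = 0.000437). It also passed in a fit of only the groups compared (adjusted p = 8.53e-05). CDK6 has the longest annotated exons of the 10 members, 12.3 kb, and CDK4 the second shortest, 3.17 kb. Within the 10 µM group, replicate 1 was highest for CDK4, CCND3 (5.80 kb) and CCND2 (7.16 kb), lowest for CDK6, CCND1 (4.83 kb) and CDC25A (4.12 kb), and between the others for the remaining members, so the members did not follow length throughout. The part of length in these values was not tested.

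CDK2 (chr12:55966769-55972784, plus strand) encodes the kinase that E-type cyclins activate. It stood at 99.1, 95.3 and 98.7 CPM in DMSO, at 104, 110.2 and 112 CPM at 5 µM, and at 95.1, 95.2 and 93.1 CPM at 10 µM. Its log2 fold change was 0.15 at 5 µM (95% interval 0.0091 to 0.30, adjusted p = 0.177) and -0.05 at 10 µM (-0.19 to 0.10, adjusted p = 0.605). The 5 µM libraries were above and the 10 µM libraries just below all DMSO libraries. Without 10 µM replicate 1, CDK2 rose by 0.15 ± 0.04 at 5 µM (adjusted p = 0.0105) and was lower at 10 µM than at 5 µM by a log2 difference of -0.21 ± 0.05 (adjusted p = 0.00447). DESeq2 also called the difference between doses (adjusted p = 0.0132). A fit of only the groups compared called the rise at 5 µM (adjusted p = 0.00643) but not the difference between doses (adjusted p = 0.308).

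CDC25A (chr3:48157146-48188402, minus strand) encodes the phosphatase that activates CDK2 and is a known E2F target. It stood at 39.4, 36.5 and 40.2 CPM in DMSO, at 43.6, 40.2 and 42.3 CPM at 5 µM, and at 25.5, 33.5 and 36.1 CPM at 10 µM. The 10 µM libraries were below all DMSO libraries and the 5 µM libraries just above them. The log2 fold change was 0.12 at 5 µM (95% interval -0.15 to 0.39, adjusted p = 0.63) and -0.29 at 10 µM (-0.56 to -0.02, adjusted p = 0.0912). The difference between doses was -0.41 ± 0.12 (adjusted p = 0.0677). It passed without 10 µM replicate 1, at -0.27 ± 0.07 (adjusted p = 0.00779), without 10 µM replicate 3 (adjusted p = 0.0375) and with DESeq2 (adjusted p = 0.0287). The change at 10 µM was -0.16 ± 0.07 without 10 µM replicate 1 (adjusted p = 0.0692), and it passed without 10 µM replicate 3, at -0.39 (adjusted p = 0.0332).

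CCNG2 (chr4:77157151-77433388, plus strand) was the member with the largest called change at both doses. It stood at 44.2, 41.6 and 44.1 CPM in DMSO, at 24.4, 26.3 and 26.3 CPM at 5 µM, and at 17.5, 17.2 and 17.6 CPM at 10 µM. The 3 groups did not overlap and followed the dose. CCNG2 fell by 0.75 ± 0.07 on the log2 scale at 5 µM (adjusted p = 0.00028) and fell by 1.31 ± 0.08 at 10 µM, a level 2.49-fold lower (adjusted p = 1.73e-06). It was also lower at 10 µM than at 5 µM by a log2 difference of -0.56 ± 0.07 (adjusted p = 0.00207). Among the alternatives run, only an added requirement of a 1.5-fold change ended one of these calls, that between doses, where the level was 1.47-fold lower. The change at 10 µM ranged from -1.35 to -1.27 over them. Replicate 1 at 10 µM did not stand apart for this gene, and without it CCNG2 fell by 1.32 ± 0.07 at 10 µM (adjusted p = 6.36e-10). CCNG1, a p53 target and the nearest relative of CCNG2, was chosen after the values of the members were seen. It gave log2 fold changes of 0.17 at 5 µM (adjusted p = 0.138) and 0.18 at 10 µM (adjusted p = 0.0534).

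**Figure D4:**
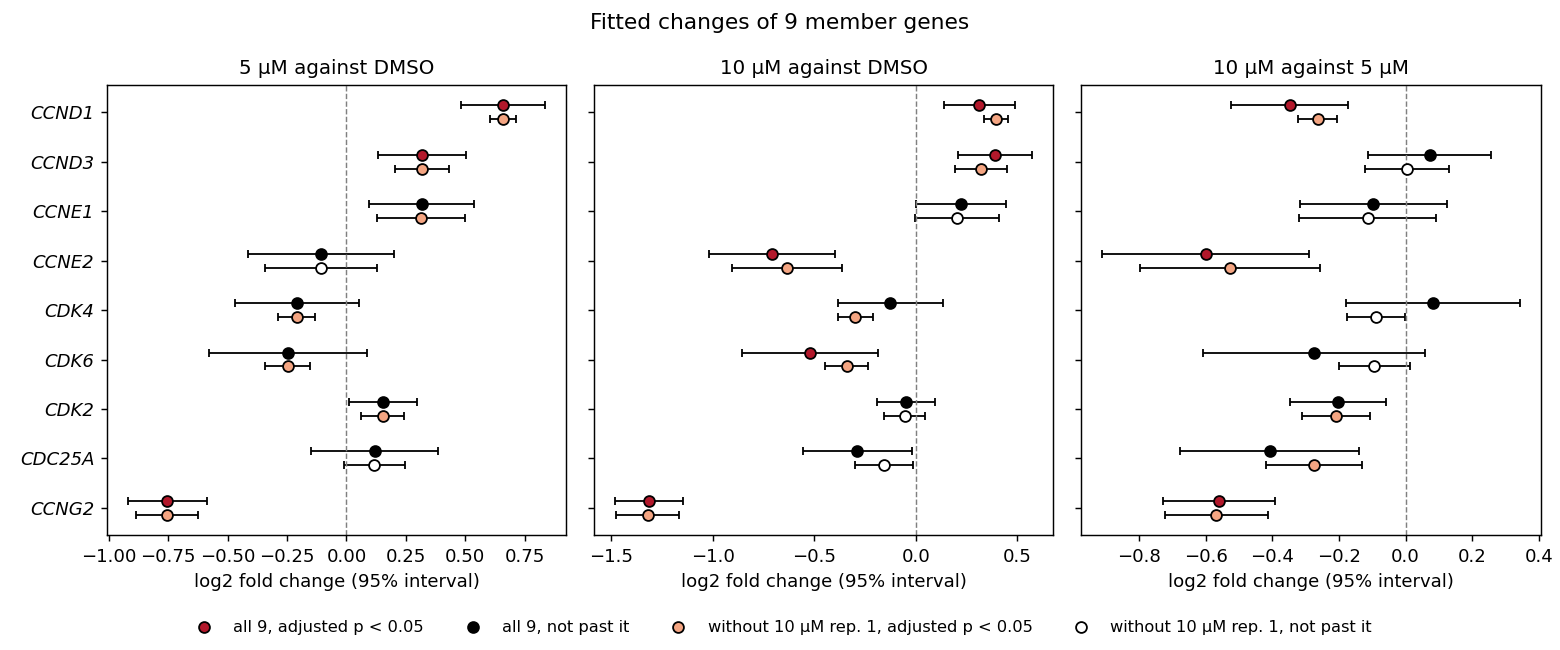
Fitted log2 fold changes with 95% intervals of 9 members in the 3 comparisons, from all 9 libraries and without 10 µM replicate 1, with fill by whether the adjusted p passed 0.05; CCND2 is left out because its interval spans from -1.83 to 2.31 at 5 µM. CCNG2 lay furthest left at both doses, and the intervals of CCND1, CDK4 and CDK6 were narrower without the library.

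Other annotated genes share exons with members on the opposite strand, which matters if the counting did not use strand. These genes, INTS8 and TSPAN31 among them, were also chosen after the values of the members were seen. For CCND1 this is LTO1, listed in the table under its older symbol ORAOV1, which covers 10.3% of the CCND1 exons. It rose by 0.48 ± 0.10 at 5 µM (adjusted p = 0.0154) and by 0.96 ± 0.10 at 10 µM (adjusted p = 8.42e-05). In counts not divided by length, its mean was 12.4 CPM in DMSO and 24.2 CPM at 10 µM, while CCND1 had 623 CPM and 774 CPM. For CDK2, 16.8% of the exons overlap genes on the other strand. PMEL, with a mean of 1.48 CPM in DMSO, covers 2.29% of them. The antisense gene AC025162.1 covers 14.5%, and no level was obtained for it here. CCNE1, CDC25A and CCNG2 shared no exon with another annotated gene. CCND1, CCND3, CCNE1, CDK2, CDK6, CDC25A and CCNG2 had whole counts in every library.

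Genes related to the G1 cyclins and CDKs were examined as 7 lists, and from each the 2 tested genes with the smallest p at 10 µM are named. Their counts stand beside 4.40% of all tested genes higher and 5.81% lower at 5 µM, and 16.4% higher and 18% lower at 10 µM. Among the CDK inhibitors, 7 of the 8 listed were tested, and 1 rose and 4 fell at each dose. CDKN1A, the gene of p21, which inhibits CDK2 and is a p53 target, rose by 1.80 ± 0.10 on the log2 scale at 5 µM (adjusted p = 1.04e-05) and by 2.30 ± 0.10 at 10 µM, or 4.91-fold (adjusted p = 3.12e-07). The group means of 158, 549 and 775 CPM climbed with dose. CDKN1C, the gene of p57, fell, with log2 fold changes of -1.30 ± 0.21 at 5 µM (adjusted p = 0.00398) and -2.38 ± 0.22 at 10 µM (adjusted p = 3.59e-05). The group means of 24.5, 9.95 and 4.72 CPM went down with dose. The median log2 fold change of the inhibitors was -0.65 at 5 µM and -0.62 at 10 µM, opposite in sign to CDKN1A.

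Downstream, the 14 genes of the RB and E2F family showed 0 rises and 2 falls at 5 µM and 1 rise and 8 falls at 10 µM, with medians of -0.27 and -0.44. E2F1, an activating E2F, fell by 0.79 ± 0.13 at 10 µM (adjusted p = 0.0013), and its value of -0.45 at 5 µM did not pass (adjusted p = 0.054). E2F2, another activator, fell by 1.55 ± 0.21 at 10 µM (adjusted p = 0.00043), where its mean was 2.65 CPM against 7.78 CPM in DMSO. Among the 13 cyclins and regulators of S, G2 and M phase, 1 rose and 8 fell at 5 µM, and 1 rose and 9 fell at 10 µM, with medians of -0.48 and -0.82. CCNF, the F-box cyclin of G2, fell by 0.60 ± 0.07 at 5 µM (adjusted p = 0.000839) and fell by 1.24 ± 0.07 at 10 µM (adjusted p = 2.01e-06). CCNA2, the S phase and G2 cyclin that also binds CDK2, fell by 0.54 ± 0.08 (adjusted p = 0.00232) and fell by 1.23 ± 0.08 (adjusted p = 3.84e-06). Their levels at 10 µM were 22.5 CPM and 30.9 CPM, against 53.1 CPM and 72.4 CPM in DMSO.

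For turnover of G1 cyclins and CDC25A, 13 of the 14 listed genes were tested, of which 1 rose and 2 fell at 5 µM, and 2 rose and 2 fell at 10 µM, with medians of 0.04 and 0.0128. FBXW7, the ubiquitin ligase subunit that recognizes cyclin E, rose by 0.55 ± 0.11 at 5 µM (adjusted p = 0.011) and by 0.99 ± 0.11 at 10 µM (adjusted p = 0.000104), with means of 13.3 CPM in DMSO and 26.5 CPM at 10 µM. SKP2, the subunit that targets p27, fell by 0.29 ± 0.08 (adjusted p = 0.0402) and fell by 0.86 ± 0.08 (adjusted p = 3.28e-05). In the ERK pathway output list of 15 genes, which holds genes upstream of or parallel to CCND1, 1 rose and 3 fell at 5 µM and 4 rose and 8 fell at 10 µM, with medians of -0.12 and -0.38. The immediate early factor EGR1 rose by 4.21 ± 0.12 at 10 µM (adjusted p = 3.87e-08), whereas the ETS factor ETV4 fell by 0.79 ± 0.09 (adjusted p = 0.000178).

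The last lists hold further cyclins and CDKs, among them those of the CDK-activating kinase. Among the 14 genes of the CDK-activating kinase and the transcriptional cyclins and CDKs, 1 rose and 1 fell at 5 µM, and 1 rose and 2 fell at 10 µM, with medians of -0.0082 and 0.003. CCNK, the partner of CDK12 and CDK13, rose by 0.29 ± 0.07 at 5 µM (adjusted p = 0.0352) and by 0.45 ± 0.07 at 10 µM (adjusted p = 0.00118). The Mediator kinase CDK19 fell by 0.52 ± 0.14 (adjusted p = 0.0466) and fell by 0.88 ± 0.15 (adjusted p = 0.00131). Of the other cyclins and CDKs, 16 of the 19 listed were tested, of which 1 rose and 1 fell at 5 µM and 2 rose and 4 fell at 10 µM, with medians of -0.03 and 0.05. CDK18 fell by 0.44 ± 0.11 at 5 µM (adjusted p = 0.0374) and fell by 0.88 ± 0.11 at 10 µM (adjusted p = 0.000304). CCNI fell by 0.72 ± 0.14 at 10 µM (adjusted p = 0.00391), and its value of -0.40 at 5 µM did not pass (adjusted p = 0.111).

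With 10 µM replicate 1 left out, all the genes named from these lists were again called at 10 µM in the same direction, among them CDKN1A at 2.17 ± 0.04, CDKN1C at -2.67 ± 0.15 and FBXW7 at 1.00 ± 0.10 on the log2 scale. E2F1, E2F2 and CCNI were then called lower at 5 µM as well (adjusted p = 7.53e-05, 0.044 and 9.21e-07). The RB and E2F family had 1 rise and 8 falls at 5 µM and 2 rises and 8 falls at 10 µM, and the S, G2 and M phase list had 1 rise and 10 falls at each dose. The inhibitors had 1 rise and 5 falls at 5 µM and 1 rise and 4 falls at 10 µM. The turnover list had 2 rises and 2 falls at 5 µM and 4 rises and 2 falls at 10 µM, as did the transcriptional list. The other cyclins and CDKs, with 17 tested, had 4 rises and 3 falls at 5 µM and 3 rises and 5 falls at 10 µM, and the ERK output list 2 rises and 9 falls and then 5 rises and 8 falls. In that fit 34.2% of all tested genes were called in either direction at 5 µM and 48.8% at 10 µM. At 10 µM the median was 0.0628 for the turnover list, 0.13 for the transcriptional list and -0.11 for the other cyclins and CDKs, the last with its sign turned. At 5 µM that last median was 0.0055, also turned in sign.

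**Figure D5:**
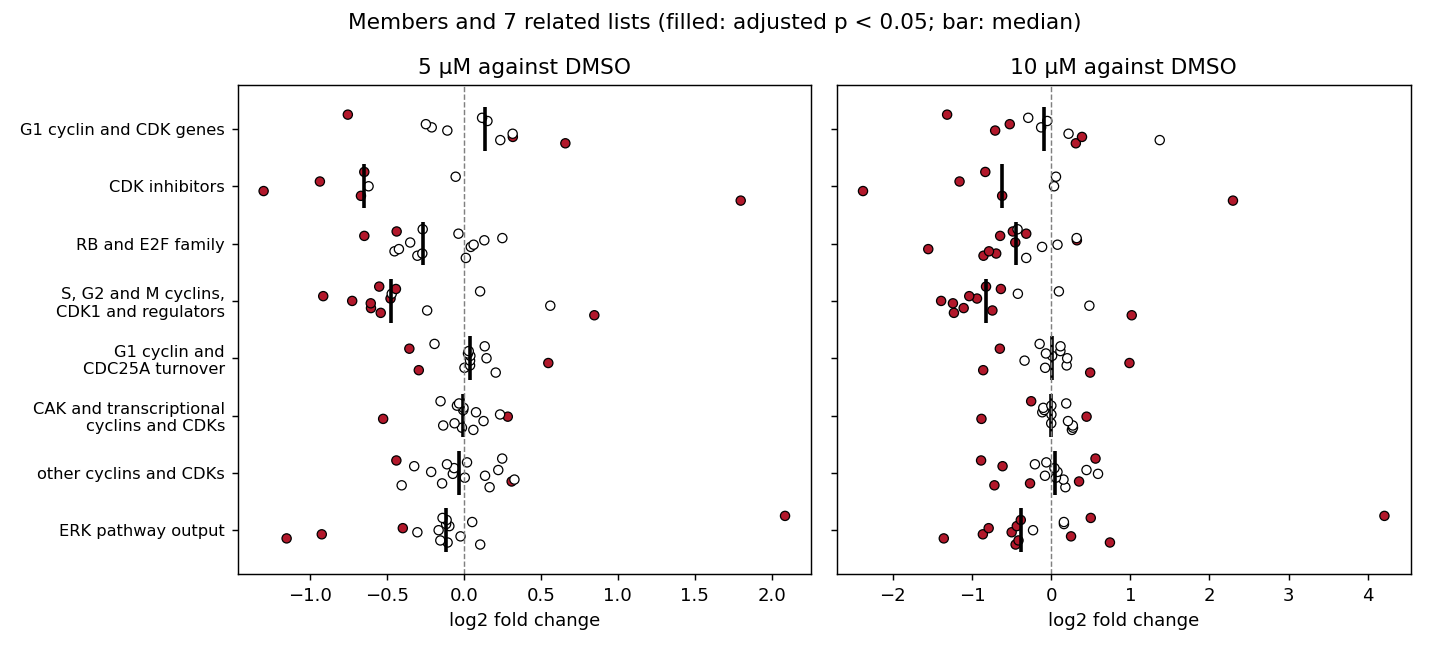
Log2 fold change of each tested gene in the 10 members and in 7 related lists, at 5 µM and 10 µM against DMSO, with filled points for an adjusted p under 0.05 and a bar at the median of the list. The S, G2 and M phase list had the lowest median at 10 µM, -0.82, whereas the member median was -0.09.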

How the data were processed

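The authors deposited expected counts per gene symbol, estimated by RSEM and not scaled. The submitters' processing notes name Bowtie2 2.1.0, RSEM 1.2.15 and hg38. The annotation and the use of strand in counting were not given in the sources used here. Sample labels and the paper's methods describe oligo-dT purification and strand-specific libraries, whereas the design text describes depletion of ribosomal RNA; ribosomal RNA genes held 8.22% to 19.9% of counts. Between 10.6% and 13.8% of values were not whole, and all were rounded.

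Counts were fitted with edgeR 4.0.16 (R 4.3.3, TMM, filterByExpr, quasi-likelihood F test, all 3 groups in one fit) with Benjamini-Hochberg adjustment over 16417 genes; the SE is the log2 fold change over the square root of F. DESeq2 1.42.0 and limma 3.58.1 were alternatives. The script was tested on simulated data. The exact test (scipy 1.17.1) used the absolute difference of mean log2 ratios of counts with 0.5 added. Lengths and overlaps were from GENCODE 29 on GRCh38, promoters from RefSeq. Same-numbered libraries of different groups did not deviate together (9 correlations, -0.049 to 0.032), so numbers were not treated as pairs. No replicates were duplicates by chi-square (at least 5.29 per gene). Members, lists and the rule for named genes (all members and the 2 genes of each list with the smallest p at 10 µM) were chosen with earlier results of these data known.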

Additional observations from a re-analysis of the deposited data

How the results depend on the processing

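Over 18 settings, an added requirement of a 1.5-fold change not among them, 490 of the recomputed fold changes of members kept their direction and their side of the threshold, 28 lost the call, 16 gained it and 2 changed sign. Both sign changes were in values that passed no test, CCND2 at 5 µM (-0.0612 to 0.5437 as single libraries were left out, negative without DMSO replicate 2) and CDK4 between doses (-0.0893 to 0.1602, negative without 10 µM replicate 1). The number of members called at 5 µM went from 3 to 7 in a fit of only the groups compared and to 7 without 10 µM replicate 1, and ranged from 2 to 7 as single libraries were left out. At 10 µM, 5 members were called, 3 to 6 as single libraries were left out and 2 with a fold change of at least 1.5 required as well. Between doses, 3 were called, 5 with DESeq2, 1 in a fit of only the groups compared, 1 with that fold change, and 1 to 5 as single libraries were left out. The CCNE1 to CCNE2 ratio difference ranged from 0.60 to 0.75 as single libraries were left out. With the replicate number as a block, the log2 fold change of CCND3 at 5 µM was 0.32 and no longer passed (adjusted p = 0.0766), and no other member's call changed under the block. Over all genes, the calls at 5 µM were 722 higher and 954 lower, against 3051 and 3280 in a fit of only the groups compared, 1213 and 1463 with DESeq2, and 2770 and 2951 without 10 µM replicate 1. Between doses they were 471 and 908, against 1080 and 1382 with DESeq2 and 114 and 221 in a fit of only the groups compared. CCND2 had 2 to 37 counts in a library. The causes were not tested.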
